A study of Mus musculus with 18 samples.

Results

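The genes described here are the classical cadherins, their close relatives and the non-clustered protocadherins of the mouse, taken as every gene whose symbol is Cdh or Pcdh followed by a number. Predicted genes and pseudogenes were left out. This gave 35 of the 54532 genes counted, 23 cadherins and 12 protocadherins. By the usual classification 5 of them are type I classical cadherins (Cdh1, Cdh2, Cdh3, Cdh4 and Cdh15) and 13 are type II classical cadherins (Cdh5 to Cdh12, Cdh18, Cdh19, Cdh20, Cdh22 and Cdh24). Another 5 carry a cadherin number but are not classical (Cdh13, Cdh16, Cdh17, Cdh23 and Cdh26). Among the protocadherins, 4 belong to the delta-1 group (Pcdh1, Pcdh7, Pcdh9 and Pcdh11x), 5 to the delta-2 group (Pcdh8, Pcdh10, Pcdh17, Pcdh18 and Pcdh19) and 3 to neither (Pcdh12, Pcdh15 and Pcdh20). They were compared between pups mutant for both Rxrg and Rarb (dKO) and control pups at postnatal day 0, in medial, orbital and dorsal tissue of the frontal cortex. Rxrg and Rarb encode a retinoid X receptor and a retinoic acid receptor, transcription factors that respond to retinoic acid. Each of the 6 groups (dKO and control tissue of each region) held 3 libraries, 18 in all. The labels give neither the exons altered in the mutant alleles nor the strain, the sex, the litter or the number of animals, and they describe the controls no further.

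Classical cadherins hold cells together through outer domains that bind the same or a related cadherin on the neighbouring cell in the presence of calcium, while their inner tails bind beta-catenin and p120 catenin and, through alpha-catenin, the actin skeleton. Delta protocadherins adhere more weakly, and the tails of several delta-2 members recruit the WAVE complex, which starts actin branching. In the developing cortex neurons of different layers and areas carry different combinations of these proteins, which take part in the sorting of neurons, the growth of axons and the matching of synaptic partners, and Cdh6 and Cdh8 have long served as markers of areas in newborn mouse neocortex.

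Libraries held 28957325 to 93093398 fragments assigned to genes. Each library belongs to a set (A, B or C, which are replicates 1, 2 and 3) and to a row, the 3 regions of 1 genotype in a set. Between any pair of libraries in a group, chi-square per degree of freedom over genes was 41.8 or more, so none was the same library counted again. That measure covers counting error only and does not tell whether libraries share an animal or RNA. Xist and the Y-linked gene Ddx3y placed the dKO rows of sets A and C as female and all other rows as male. Rarb was at 1.19 to 4.85 CPM (fragments per 1000000 counted fragments) in dKO libraries and at 3.50 to 13.9 CPM in control libraries, and Rxrg at 0.377 to 2.90 CPM in dKO libraries and 1.64 to 30.5 CPM in control libraries. In set A these differences were small, and Rxrg was higher in its orbital dKO library (2.90 CPM) than in its orbital control library (2.35 CPM). A list of 8 cortical neuron markers summed to 5585 to 9084 CPM over all libraries, and none of them was at 0. Whether rows are single brains is not stated, and the spread behind each p-value is only that among these libraries, which may be technical.

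Levels of different members were compared per length, as FPKM (CPM per 1000 bases of exon). The median over the 18 libraries was at least 10 FPKM for 9 members, between 1 and 10 FPKM for 14 and under 1 FPKM for 12. Cdh4 (R-cadherin, a type I cadherin of the developing brain) had the highest median, 39.4 FPKM, with a range of 17.7 to 97.7 FPKM. Pcdh8 (arcadlin, a protocadherin that promotes the uptake of N-cadherin from synapses) followed at 36.5 FPKM with a range of 19.02 to 53.4 FPKM. Cdh2 (N-cadherin, the main cadherin of neuroepithelium and synapses) had 36.4 FPKM with a range of 21.4 to 50.8 FPKM. The ranges of these 3 overlapped, so their order was not separated by the spread between libraries, and Cdh13 (T-cadherin, held in the membrane by a lipid anchor and without the catenin-binding tail) came close at 30.7 FPKM. Together Cdh4, Pcdh8, Cdh2 and Cdh13 made up 39.8% to 68% of the summed FPKM of all members in a library, with a median of 49.1%.

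Type II cadherins differed widely in level. Cdh11 had a median of 18.3 FPKM, Cdh8 12.6 FPKM, Cdh10 8.46 FPKM and Cdh12 6.30 FPKM, whereas Cdh19, a cadherin of Schwann cell precursors, was at 0 in 10 of the 18 libraries and had 152 fragments in all. Cdh5 (VE-cadherin, the adhesion protein of blood vessel walls) had 4.65 FPKM. Cdh1 (E-cadherin, the cadherin of epithelia) was among the higher members with a median of 11.5 FPKM but differed 11-fold between its lowest and highest library, while Cdh22 differed 1.71-fold and Cdh10 1.92-fold. Of the non-classical cadherins, Cdh16, known from kidney epithelium, had no fragment in any library, and Cdh26 had 49 fragments in all. Cdh23, which with Pcdh15 forms the tip links of inner ear hair cells, had 193 fragments and was at 0 in 3 libraries. Cdh16 and Cdh26 did not pass the filter on low counts, so that 33 members were tested, 21 cadherins and 12 protocadherins.

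**Figure D1:**
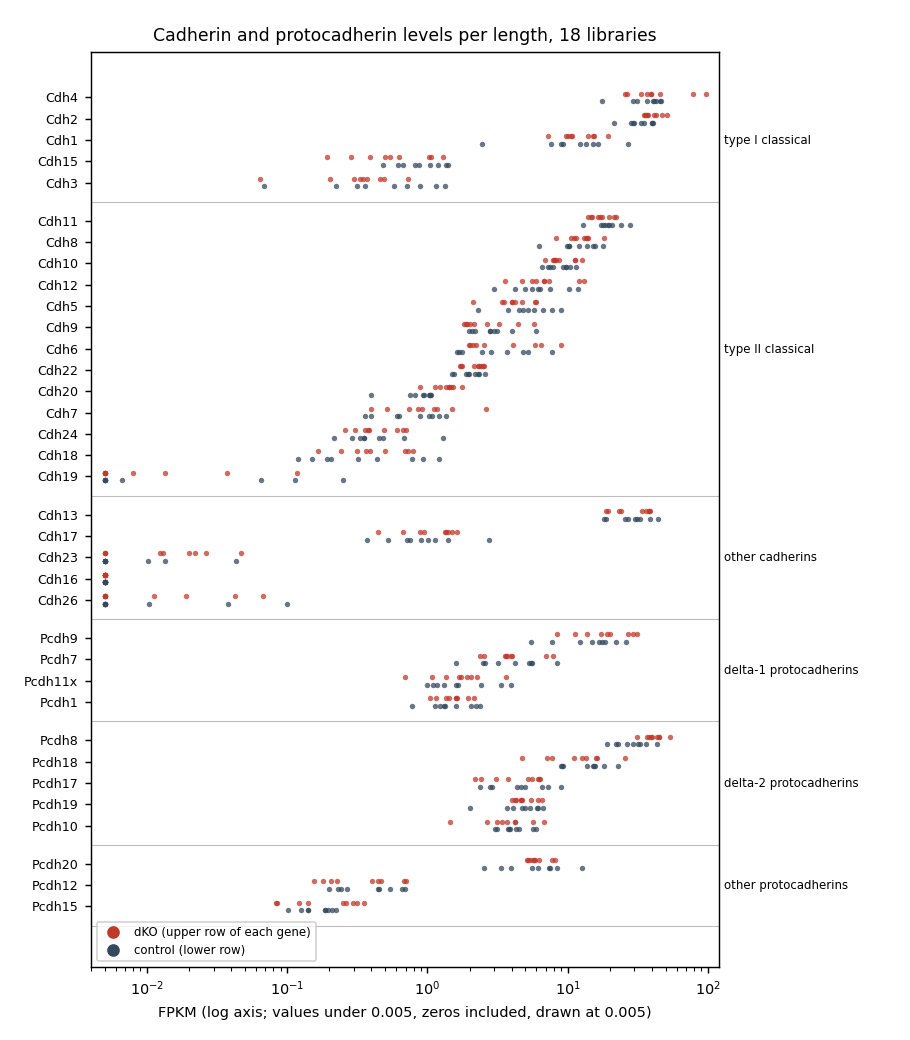
Each point is 1 library, with dKO libraries in the upper row and control libraries in the lower row of each gene, and FPKM on a log axis. Members are grouped by role and ordered by their median within it, from Cdh4 at 39.4 FPKM down to Cdh16, which had no fragments.

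Summed over the 5 delta-2 protocadherins, levels were 61.9 to 80.7 FPKM in orbital dKO libraries against 40.3 to 52.6 FPKM in orbital control libraries, with no overlap. Pcdh8 made up most of this difference, with a mean of 38.3 FPKM in orbital dKO against 22.8 FPKM in orbital control libraries, and the other 4 summed to 24.9 to 42.3 FPKM in dKO against 17.6 to 28.9 FPKM in control libraries, which overlapped. In medial tissue the sums of all 5 were 53.2 to 71.6 FPKM in dKO and 60.5 to 71.5 FPKM in control libraries, and in dorsal tissue 57.4 to 71.9 FPKM in dKO and 54.7 to 64.9 FPKM in control libraries, and both pairs of ranges overlapped. Without Pcdh8 the medial sums were 22 to 30.3 FPKM in dKO and 31.1 to 41.4 FPKM in control libraries, with no overlap. The dorsal sums without it were 12.8 to 28.2 FPKM in dKO and 20 to 28.8 FPKM in control libraries, which overlapped. Pcdh8 was set apart after its values were seen. Cdh4, the highest member, held its peaks in 2 single dKO libraries. In orbital tissue it had 268, 573 and 287 CPM in dKO sets A, B and C, against 295, 302 and 225 CPM in the control sets. In dorsal tissue it had 240.5, 334 and 709 CPM in dKO, against 311, 268 and 335 CPM in control. Medial dKO libraries had 187, 192 and 285 CPM of Cdh4 and medial control libraries 129, 329 and 212 CPM. Only the orbital dKO library of set B and the dorsal dKO library of set C thus stood above the 129 to 335 CPM of the other 16 libraries, and the fitted log2 fold changes of Cdh4 were 0.39 (SE 0.353, adjusted p = 0.659) in orbital and 0.36 (SE 0.353, adjusted p = 0.918) in dorsal tissue.

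Promoter sequences are shown for 4 members whose values are described in detail below, Cdh6 and Pcdh7, which were lower in both other regions than in dorsal tissue, Cdh8, whose dKO effect differed between regions, and Pcdh8, which was at higher values in dKO in every set and region. The sequences are RefSeq windows on build GRCm38.p6 that run from 250 bases before to 50 bases after a start site, written 5′ to 3′ on the gene's strand. Capitals mark a GC box (GGGCGG) or a TATA box (TATAAA).
Cdh6: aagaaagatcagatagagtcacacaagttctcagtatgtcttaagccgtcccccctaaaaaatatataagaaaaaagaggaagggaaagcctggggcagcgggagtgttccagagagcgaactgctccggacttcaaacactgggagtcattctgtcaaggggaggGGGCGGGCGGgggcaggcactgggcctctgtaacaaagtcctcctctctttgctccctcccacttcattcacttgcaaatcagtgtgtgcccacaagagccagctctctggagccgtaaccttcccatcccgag
Cdh8: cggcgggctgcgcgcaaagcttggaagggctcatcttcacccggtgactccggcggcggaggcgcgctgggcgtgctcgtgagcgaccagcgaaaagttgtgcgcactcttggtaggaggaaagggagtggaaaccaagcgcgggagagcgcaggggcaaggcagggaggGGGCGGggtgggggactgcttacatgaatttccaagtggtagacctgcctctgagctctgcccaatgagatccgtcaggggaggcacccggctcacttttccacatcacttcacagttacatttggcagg
Pcdh7: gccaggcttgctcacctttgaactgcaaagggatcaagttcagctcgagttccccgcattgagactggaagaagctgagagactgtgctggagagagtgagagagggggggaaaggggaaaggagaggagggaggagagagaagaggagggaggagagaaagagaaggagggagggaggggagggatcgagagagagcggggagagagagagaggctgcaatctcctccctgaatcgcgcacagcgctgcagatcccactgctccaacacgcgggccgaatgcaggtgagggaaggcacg
Pcdh8: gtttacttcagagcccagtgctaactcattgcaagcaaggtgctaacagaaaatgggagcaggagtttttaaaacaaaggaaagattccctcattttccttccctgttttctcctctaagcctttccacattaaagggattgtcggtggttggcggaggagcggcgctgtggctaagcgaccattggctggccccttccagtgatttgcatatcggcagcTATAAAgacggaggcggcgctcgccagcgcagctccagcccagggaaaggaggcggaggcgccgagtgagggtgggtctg

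The windows lie at chr15:13173626-13173925 (minus strand) for Cdh6, chr8:99416422-99416721 (minus strand) for Cdh8, chr5:57717831-57718130 (plus strand) for Pcdh7 and chr14:79771263-79771562 (minus strand) for Pcdh8. The start site of Pcdh7 in this table is 114 bases from the gene's start in the counted gene models. For some other members the start site lies far inside the counted gene. It is 487441 bases from the counted start for Cdh18, 662187 for Cdh12 and 722525 for Pcdh15, so matches in these windows are not at the counted gene start. Of the 35 members 22 matched the promoter table, with 25 windows, in which 4 motifs were looked for as letters on both strands, with matches allowed to overlap as they do in Cdh6. GGGCGG occurred in 9 of the 25 windows (36%) against 35.7% of 32851 promoter windows of the same length, and TATAAA in 2 (Pcdh8 and Pcdh15) against 13.6%. AGGTCA, the element that retinoid receptors bind in pairs, occurred in 1 window (Cdh18) against 16.3%, and TAATTA, a homeodomain core, in 1 (Cdh7) against 5.29%. Direct repeats were searched with a looser form of the retinoid receptor element, (A or G)G(G or T)TCA. With spacings of 1, 2 and 5 bases they were found in 0 member windows and in 0.222%, 0.268% and 0.0974% of all windows. These are matches of letters within 300 bases.

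Region differences were read within each genotype. Cdh6, Pcdh7 and Cdh12 were lower in medial than in dorsal cortex in dKO and in control tissue, and lower in orbital than in dorsal control cortex. Cdh6 is a type II cadherin (K-cadherin) that marks subsets of cortical neurons, Cdh12 (Br-cadherin) is a type II cadherin of neurons, and Pcdh7 (BH-protocadherin) is a delta-1 protocadherin. In bulk tissue fewer cells of a type and less RNA per cell cannot be told apart.

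Cdh6 (ENSMUSG00000039385, GRCm38 chromosome 15, 13028701 to 13173675, minus strand) had 18.1, 18.99 and 20.2 CPM in medial dKO libraries of sets A, B and C and 22.8, 36.7 and 17.96 CPM in orbital dKO libraries, against 58.8, 81.5 and 52.7 CPM in dorsal dKO libraries. The control libraries had 15.2, 33.4 and 16.0 CPM in medial tissue and 22.1, 25.6 and 14.7 CPM in orbital tissue, against 43.5, 70.4 and 47.4 CPM in dorsal tissue. All 6 dorsal libraries lay above all 12 others, in both genotypes. The log2 fold change of Cdh6 between medial and dorsal tissue was -1.77 in dKO (SE 0.206, adjusted p = 0.000936) and -1.41 in control (SE 0.204, adjusted p = 0.0101). Between orbital and dorsal tissue it was -1.40 in dKO (SE 0.203, adjusted p = 0.00700) and -1.47 in control (SE 0.204, adjusted p = 0.00165).

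Pcdh7 (ENSMUSG00000029108, chromosome 5, 57717967 to 58133230, plus strand) had 38.0, 38.89 and 26.9 CPM in medial and 39.3, 42.8 and 25.3 CPM in orbital dKO libraries, against 74.1, 83.6 and 42.2 CPM in dorsal dKO libraries. In control tissue it had 27.5, 56.4 and 34.0 CPM in medial and 26.5, 44.5 and 16.96 CPM in orbital libraries, against 58.2, 89.8 and 59.6 CPM in dorsal libraries. The dorsal dKO library of set C overlapped the orbital dKO libraries, dorsal control libraries lay above both other control regions, and within rows Pcdh7 was below dorsal tissue in 6 of 6 rows for both regions. Its log2 fold change between medial and dorsal tissue was -0.97 in dKO (SE 0.158, adjusted p = 0.00739) and -0.89 in control (SE 0.157, adjusted p = 0.0271), and between orbital and dorsal tissue -0.93 in dKO (SE 0.158, adjusted p = 0.0157) and -1.41 in control (SE 0.160, adjusted p = 0.000573). Counting ignored strand, and 21.1% of the exon bases of Pcdh7 also belong to an opposite-strand gene, 4932441J04Rik, which was given 240 fragments over all libraries against 35846 for Pcdh7.

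Cdh12 (ENSMUSG00000040452, chromosome 15, 20449265 to 21589533, plus strand) had 29.7, 35.4 and 22.7 CPM in medial and 37.6, 46.2 and 43.0 CPM in orbital dKO libraries, against 75.6, 82.5 and 42.8 CPM in dorsal dKO libraries. The control values were 35.2, 39.0 and 26.5 CPM in medial and 40.4, 31.5 and 18.8 CPM in orbital libraries, against 65.0, 74.9 and 47.0 CPM in dorsal libraries. Dorsal control libraries lay above both other regions, and in dKO the orbital and dorsal ranges overlapped through the dorsal library of set C. The medial to dorsal log2 fold change of Cdh12 was -1.24 in dKO (SE 0.183, adjusted p = 0.00419) and -0.92 in control (SE 0.181, adjusted p = 0.0426).

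Between medial and dorsal tissue these were the only members past the threshold, 3 lower and 0 higher of 33 (9.09%) in each genotype. Of all 18730 genes, 1.22% were called lower and 0.87% higher in dKO, and 0.283% lower and 0.208% higher in control. Without the term for the row, only Cdh6 in dKO passed. Leaving out 1 row left Cdh6 past the threshold in dKO for each of the 3 rows, and in control without replicate 1 or 2 but not without replicate 3 (0 members). Cdh12 and Pcdh7 no longer passed in dKO without replicate 1 or 2, nor in control when any 1 row was left out. Cortical neuron markers summed to 5937 to 6740 CPM in medial against 6666 to 7391 CPM in dorsal dKO libraries, which overlapped. Of 10 progenitor and cell cycle markers 3 were called higher in medial dKO libraries (summed 375 to 604 CPM against 241.5 to 329 CPM in dorsal dKO libraries). Their part in the medial differences was not tested.

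**Figure D2:**
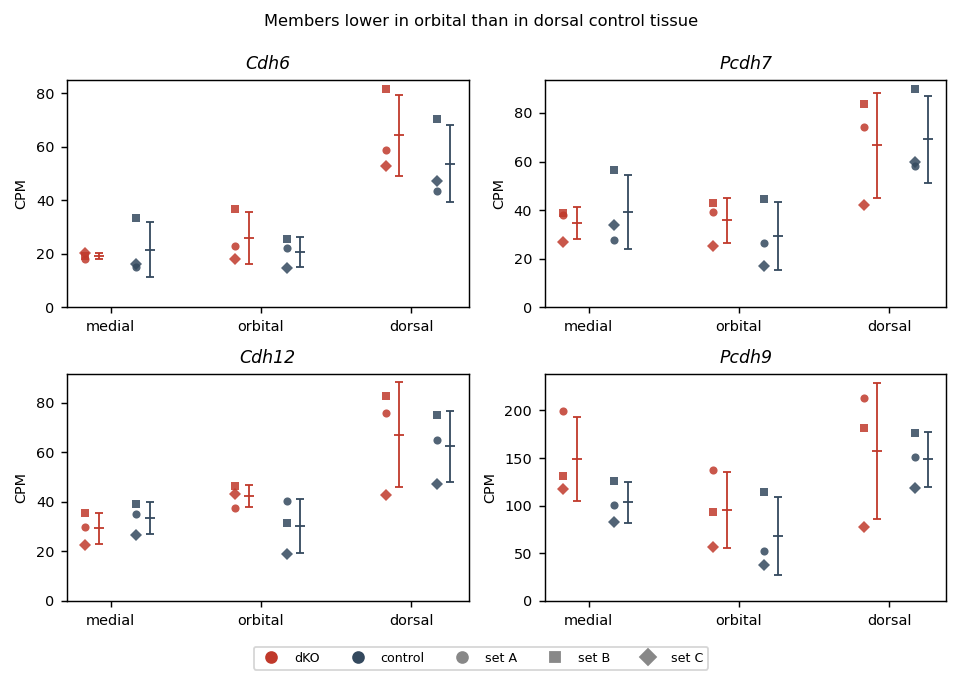
CPM of Cdh6, Pcdh7, Cdh12 and Pcdh9 in each library by region, with dKO left of control, symbols for the 3 sets, and bars for the mean and SD of 3 libraries. For Cdh6 all dorsal libraries (43.5 to 81.5 CPM) lie above the others (14.7 to 36.7 CPM).

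Between orbital and dorsal tissue of controls, 9 of 33 members (27.3%) were lower and 0 were higher, where 9.44% of all genes were called lower and 6.39% higher. Beside Pcdh7, Cdh6 and Cdh12 these were Pcdh9 and Pcdh8, the type II cadherin Cdh8, and Pcdh19, Cdh2 and Pcdh20. Pcdh9, a delta-1 protocadherin of cortical neurons, had 52.5, 114 and 37.4 CPM in orbital against 151, 177 and 119 CPM in dorsal control libraries, and its log2 fold change was -1.37 (SE 0.200, adjusted p = 0.00182). For Pcdh8 (chromosome 14, 79766775 to 79771312, minus strand) the values were 120.5, 86.3 and 103 CPM in orbital against 164, 149 and 196 CPM in dorsal control libraries, a log2 fold change of -0.83 (SE 0.125, adjusted p = 0.00211). Neither pair of ranges overlapped. Cdh12 had a log2 fold change of -1.18 (SE 0.183, adjusted p = 0.00236) and Cdh8 of -0.69 (SE 0.127, adjusted p = 0.00447). Pcdh19 (-0.90), Cdh2 (-0.50) and Pcdh20 (-0.72), a protocadherin outside the delta groups, had adjusted p from 0.0157 to 0.0393.

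In dKO tissue 2 of 33 members (6.06%), Cdh6 and Pcdh7, were lower in orbital than in dorsal libraries, and 0 were higher, where 0.342% of all genes were called lower and 0.144% higher. The next lowest p was that of Cdh7, a type II cadherin, which did not pass. It had 26.2, 11.8 and 15.02 CPM in orbital against 8.64, 5.16 and 3.96 CPM in dorsal dKO libraries, without overlap (log2 fold change 1.53, SE 0.350, adjusted p = 0.0881). The difference between genotypes was itself tested for the 9 members called in controls. The orbital to dorsal log2 fold change was higher in dKO by 0.07 (Cdh6) to 1.01 (Cdh8) for all 9, and none of these differences passed (adjusted p from 0.149 to 0.948). These 9 were chosen for low control values that enter the difference, which favours a positive sign, and over all 33 members 22 were positive and 11 negative. No gene of the 18730 passed that test. The dKO count was 0 with any 1 dKO row left out or without the term for the row, and the control count was 7 to 8 with 1 control row left out and 2 (Cdh6 and Pcdh8) without that term.

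**Figure D3:**
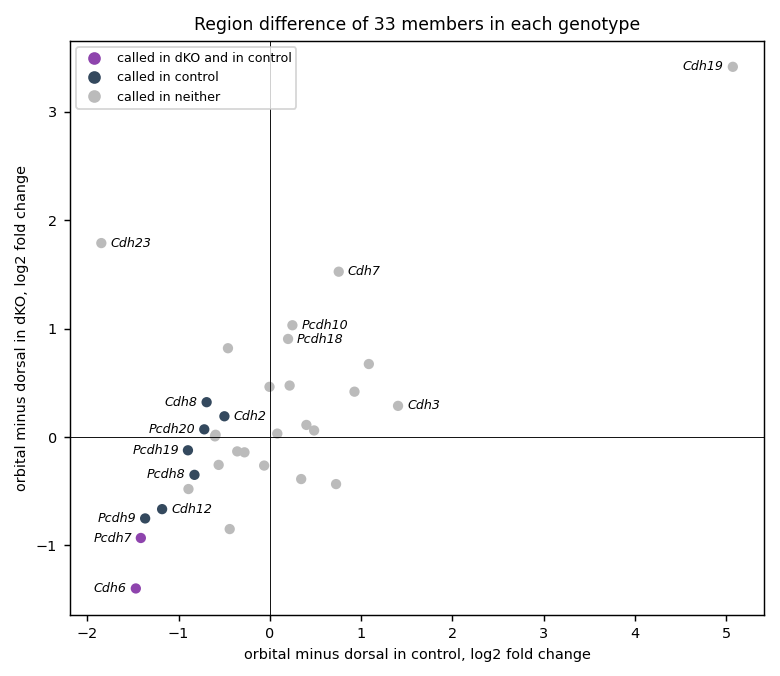
Fitted orbital minus dorsal log2 fold change of the 33 tested members, dKO on the vertical and control on the horizontal axis, coloured by the comparison in which a member passed the threshold. Cdh6 (-1.40 in dKO, -1.47 in control) and Pcdh7 (-0.93 and -1.41) passed in both, and Cdh19 at the upper right rests on 152 fragments over all libraries.

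Medial control tissue had more of several members than orbital control tissue: 6 of 33 members (18.2%) were higher and 0 lower, where 4.48% of all genes were called higher and 4.54% lower. Cdh8 had 122, 139 and 93.8 CPM in medial against 76.2, 78.8 and 48.7 CPM in orbital control libraries (log2 fold change 0.89, SE 0.127, adjusted p = 0.00485). Pcdh17, a delta-2 protocadherin of synapses and axons, had 93.5, 85.3 and 116 CPM in medial against 36.3, 60.0 and 30.9 CPM in orbital control libraries (log2 fold change 1.35, SE 0.252, adjusted p = 0.0114). Cdh2 had 283, 324 and 329 CPM in medial against 237.5, 227 and 172 CPM in orbital control libraries (log2 fold change 0.65, SE 0.147, adjusted p = 0.0189). None of these ranges overlapped. Pcdh19, the delta-2 protocadherin whose human counterpart is mutated in an epilepsy of girls, had 49.2, 62.9 and 69.5 CPM in medial against 38.6, 43.0 and 21.1 CPM in orbital control libraries (log2 fold change 0.94, SE 0.222, adjusted p = 0.0221), again without overlap. For Pcdh20 the log2 fold change was 1.14 (SE 0.219, adjusted p = 0.0118) from 69.2, 30.7 and 41.5 CPM in medial and 34.1, 21.8 and 13.9 CPM in orbital control libraries, and for Pcdh9 it was 0.80 (SE 0.198, adjusted p = 0.0265) from 101, 126 and 83.2 CPM in medial and the orbital values above. Both of these overlapped between regions, though each was higher in medial tissue within every control row. The count was 4 to 8 with 1 control row left out and 0 without the term for the row. Cortical neuron markers summed to 7082 to 9084 CPM in medial against 5585 to 7874 CPM in orbital control libraries. Of these 8 markers 3 were called higher. Called lower in medial control tissue were 5 of 8 meningeal fibroblast, 5 of 8 microglia and 3 of 10 progenitor and cell cycle markers. The part of these cell types in the medial to orbital differences of cadherins was not tested.

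In dKO tissue no member passed between medial and orbital libraries by edgeR, where 0.016% of all genes were called. At an unadjusted p under 0.05 there were 8 members, against 7.29% of all genes. Limma-voom called 0, and DESeq2 called 1, Cdh10, against 0.774% of all genes. Cdh10, a type II cadherin, had 83.2, 69.1 and 80.6 CPM in medial against 113, 128 and 114 CPM in orbital dKO libraries, with no overlap (log2 fold change -0.62, SE 0.145, adjusted p = 0.216). Pcdh9 (0.70, SE 0.197, adjusted p = 0.371) and Cdh13 (-0.64, SE 0.198, adjusted p = 0.495) had the next lowest p. Cdh13 had 210.7, 259.7 and 384 CPM in medial against 409.8, 431 and 431 CPM in orbital dKO libraries. Pcdh9 had 199.8, 131 and 117 CPM in medial against 137, 92.9 and 57.1 CPM in orbital dKO libraries, and the ranges overlapped for Pcdh9 but not for Cdh13.

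Marker lists of several cell types also differed between orbital and dorsal control libraries. Cortical neuron markers summed to 5585 to 7874 CPM in orbital against 6923 to 8414 CPM in dorsal control libraries, and 4 of 8 were called lower. Meningeal fibroblast markers summed to 1988 to 2672 CPM in orbital against 1017 to 1235 CPM in dorsal control libraries, with 4 of 8 called higher, and microglia markers to 239.7 to 288 CPM against 115.5 to 135.5 CPM, with 6 of 8 called higher. No marker of these 3 lists was at 0 throughout a group. Their part in the orbital differences of cadherins was not tested.

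In the comparison of dKO with control tissue, no cadherin or protocadherin passed the threshold in any region by the main edgeR fit. Cdh2 and Pcdh8 passed in orbital tissue by DESeq2 (adjusted p = 0.0130 and 0.0140). With no filter on low counts, edgeR called Cdh2 and Pcdh8 in orbital and Pcdh18 in medial tissue. The share of all genes called without the filter is not given here. The members with the lowest p were Cdh2, Pcdh8 and Cdh10 in orbital, Cdh10, Pcdh18 and Cdh23 in medial and Pcdh17, Pcdh8 and Pcdh19 in dorsal tissue. Pcdh8 was higher in dKO in every set and region.

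In orbital tissue 0 of 33 members passed by edgeR, where 0.0374% of all genes were called. There were 9 members at an unadjusted p under 0.05, against 13.9% of all genes. Limma-voom called 0, and DESeq2 called 2, Cdh2 and Pcdh8, against 2.3% of all genes. The members' median log2 fold change was 0.30 against -0.03 over all genes tested, with 23 members positive and 10 negative, and all 5 delta-2 protocadherins were positive (median 0.45). Cdh2 had 335.5, 410.1 and 287 CPM in orbital dKO against 237.5, 227 and 172 CPM in orbital control libraries. Pcdh8 had 174, 179 and 168 CPM in dKO against 120.5, 86.3 and 103 CPM in control libraries. Cdh10 had 113, 128 and 114 CPM in dKO against 98.3, 75.8 and 79.3 CPM in control libraries. All 3 were separated between the genotypes, with log2 fold changes of 0.70 for Cdh2 (SE 0.170, adjusted p = 0.148), 0.74 for Pcdh8 (SE 0.192, adjusted p = 0.152) and 0.49 for Cdh10 (SE 0.163, adjusted p = 0.219). Including these, 5 members did not overlap and were higher in dKO (also Cdh8 and Cdh20), against 5.56% of all genes, and 1 was lower, against 8.47%. The lower member was Cdh3 (P-cadherin, of epithelia), with 0.890, 1.32 and 2.01 CPM in dKO against 5.04, 5.91 and 3.89 CPM in control libraries.

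Meningeal fibroblast markers summed to 1010 to 1743 CPM in orbital dKO against 1988 to 2672 CPM in orbital control libraries, and microglia markers to 125 to 206 CPM against 239.7 to 288 CPM, though 0 of 8 were called in either list. The markers of olfactory ensheathing glia, a list that holds genes known from earlier results of these data, summed to 432 to 626 CPM in orbital dKO against 858 to 930.5 CPM in orbital control libraries, with 2 of 7 called lower. Cortical neuron markers summed to 7197 to 7309 CPM in orbital dKO against 5585 to 7874 CPM in orbital control libraries. Progenitor and cell cycle markers summed to 253 to 457 CPM in orbital dKO against 206 to 352 CPM in orbital control libraries. Both pairs of ranges overlapped, and 0 of 8 and 0 of 10 were called. The part of these cell types in the orbital values of cadherins was not tested.

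In medial tissue 0 of 33 members passed by edgeR, where 2.08% of all genes were called. There were 5 members at an unadjusted p under 0.05, against 15% of all genes. Neither limma-voom nor DESeq2 called any (0 each), where DESeq2 called 5.98% of all genes. Here 24 members were negative and 9 positive, with a median log2 fold change of -0.24 against -0.004 over all genes. Cdh10 had 83.2, 69.1 and 80.6 CPM in medial dKO against 92.8, 105 and 115 CPM in medial control libraries, with no overlap (log2 fold change -0.51, SE 0.163, adjusted p = 0.122). Pcdh18, a delta-2 protocadherin, had 86.1, 38.1 and 59.2 CPM in dKO against 82.5, 123 and 98.1 CPM in control libraries, which overlapped through set A (log2 fold change -0.92, SE 0.295, adjusted p = 0.125). Pcdh18 passed with a term for sex (adjusted p = 0.0493), without control replicate 1 (adjusted p = 0.0333) and with no filter (adjusted p = 0.0270). Cdh23 rested on 11, 10 and 13 fragments in dKO against 3, 0 and 2 fragments in control libraries (adjusted p = 0.184). In all 3 members (Cdh17, Cdh20 and Cdh23) were higher in dKO with no overlap, against 11.7% of all genes, and 4 (Cdh10, Cdh15, Pcdh10 and Pcdh17) were lower, against 6.47%. Progenitor and cell cycle markers summed to 375 to 604 CPM in medial dKO against 185 to 222 CPM in medial control libraries, with 5 of 10 called higher, and cortical neuron markers to 5937 to 6740 CPM against 7082 to 9084 CPM, with 0 of 8 called. Their part in the medial values of cadherins was not tested.

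In dorsal tissue 0 of 33 members passed by edgeR, where 0.0214% of all genes were called, with 1 member at an unadjusted p under 0.05, against 6.78% of all genes, and 0 by limma-voom or DESeq2, which called 0.331% of all genes. The median log2 fold change of the members was -0.01, the same as over all genes. Pcdh17 had 49.2, 31.5 and 28.6 CPM in dorsal dKO against 64.9, 56.8 and 37.9 CPM in dorsal control libraries, which overlapped (log2 fold change -0.62, SE 0.271, adjusted p = 0.686). Pcdh8 had 198, 202.7 and 242.5 CPM in dKO against 164, 149 and 196 CPM in control libraries (log2 fold change 0.29, SE 0.191, adjusted p = 0.843). It was the 1 member without overlap that was higher, against 7.03% of all genes, and 0 were lower, against 3.09%. Pcdh19 had 57.5, 43.9 and 44.7 CPM in dKO against 64.9, 56.8 and 51.8 CPM in control libraries, which overlapped (log2 fold change -0.31, SE 0.229, adjusted p = 0.872).

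With the 3 regions of a row summed, 0 of 33 members passed by edgeR, where 0.0249% of 20083 genes were called, with 3 members at an unadjusted p under 0.05, against 9.03% of all genes, and 0 by limma-voom or DESeq2, which called 1.79% of all genes. The lowest p were those of Cdh3 (log2 fold change -0.84, SE 0.266, adjusted p = 0.431), Pcdh8 (0.46, SE 0.167, adjusted p = 0.481) and Cdh20 (0.56, SE 0.242, adjusted p = 0.552), a type II cadherin. Pcdh8 was higher in dKO in 9 of 9 pairs of libraries of the same set and region, by 0.17 to 1.14 in log2 CPM, and 2.1% of all genes had this pattern. In medial tissue it had 181, 142 and 204 CPM in dKO against 134, 101 and 145 CPM in control libraries, which overlapped. It was the only 1 of the 33 members higher in all 9 pairs, and 0 members were lower in all 9, against 2.53% of all genes. Cdh20 was higher in 8 of 9 pairs. It had 5.42, 6.10 and 4.55 CPM in orbital dKO against 3.02, 4.19 and 1.58 CPM in orbital control libraries, and 5.89, 5.74 and 5.71 CPM in medial dKO against 3.74, 4.22 and 3.82 CPM in medial control libraries, with no overlap in either region.

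**Figure D4:**
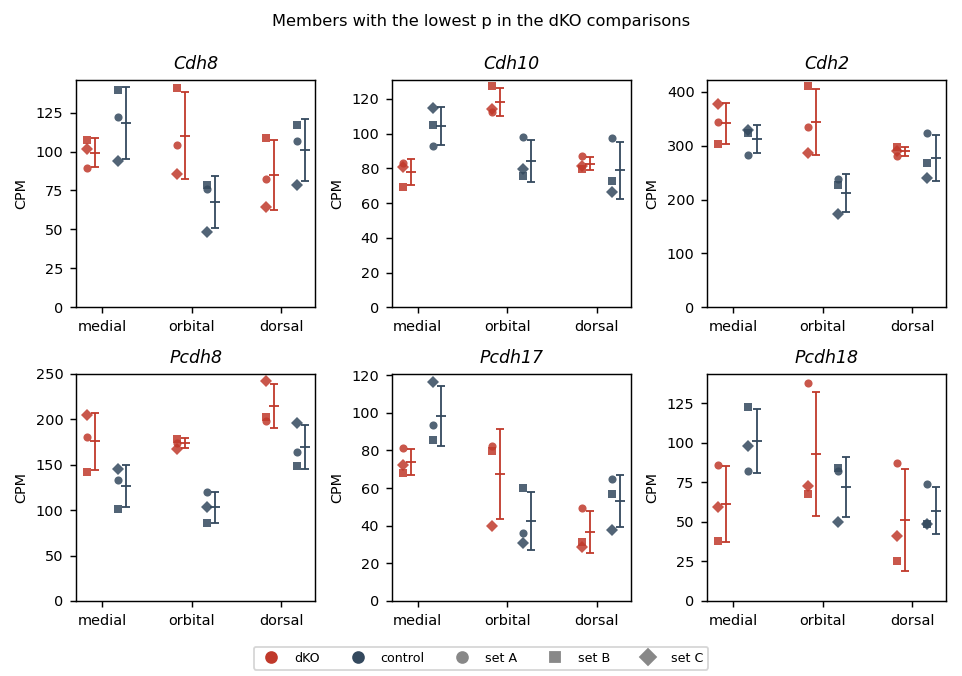
CPM of Cdh8, Cdh10, Cdh2, Pcdh8, Pcdh17 and Pcdh18 in each library by region, with dKO left of control, symbols for the 3 sets, and bars for the mean and SD of 3 libraries. The dKO libraries of Pcdh8 lie above the control libraries without overlap in orbital (168 to 179 against 86.3 to 120.5 CPM) and dorsal tissue.

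The dKO effect was then compared between regions in 1 test with 2 degrees of freedom. Cdh8 was the 1 of 33 members (3.03%) past the threshold (adjusted p = 0.0496), where 0.123% of all genes were called. Cdh8 (ENSMUSG00000036510, chromosome 8, 99024471 to 99416471, minus strand) had 104, 141 and 85.7 CPM in orbital dKO against 76.2, 78.8 and 48.7 CPM in orbital control libraries. In medial tissue it had 89.4, 107 and 102 CPM in dKO against 122, 139 and 93.8 CPM in control libraries. In dorsal tissue the values were 82.1, 109 and 64.1 CPM in dKO against 107, 117 and 78.8 CPM in control libraries. The dKO libraries were thus above the control libraries in orbital tissue without overlap, and overlapped with them in medial and dorsal tissue, where 2 of 3 and 3 of 3 sets were lower in dKO.

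No single region passed for Cdh8, with log2 fold changes of -0.34 in medial (SE 0.250, adjusted p = 0.596), 0.70 in orbital (SE 0.252, adjusted p = 0.235) and -0.30 in dorsal tissue (SE 0.250, adjusted p = 0.899). Between regions, the dKO effect on Cdh8 differed by -1.01 from medial to orbital tissue (medial minus orbital, SE 0.179, adjusted p = 0.0278), and 1.47% of all genes passed this pairwise test. The difference was 1.01 for orbital minus dorsal (SE 0.179, adjusted p = 0.149) and 0.0014 for medial minus dorsal (SE 0.178, adjusted p = 0.9996). Cdh8 passed with limma-voom (adjusted p = 0.0349) and DESeq2 (adjusted p = 7.56e-06) but not with other size factors in edgeR (RLE, adjusted p = 0.0523) or without the term for the row (adjusted p = 0.629). With 1 row left out it passed only without control replicate 1 (adjusted p = 0.0427), and its adjusted p was 0.451 without dKO replicate 1, 0.384 without dKO replicate 2, 0.0606 without dKO replicate 3, 0.154 without control replicate 2 and 0.120 without control replicate 3. The next lowest p in the joint test were those of Cdh10 (adjusted p = 0.0863) and Pcdh18 (adjusted p = 0.131), which did not pass. In the pairwise test of medial minus orbital the dKO effect on Cdh10 differed by -1.01 (SE 0.205, adjusted p = 0.0328) and that on Pcdh18 by -1.22 (SE 0.294, adjusted p = 0.0548).

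**Figure D5:**
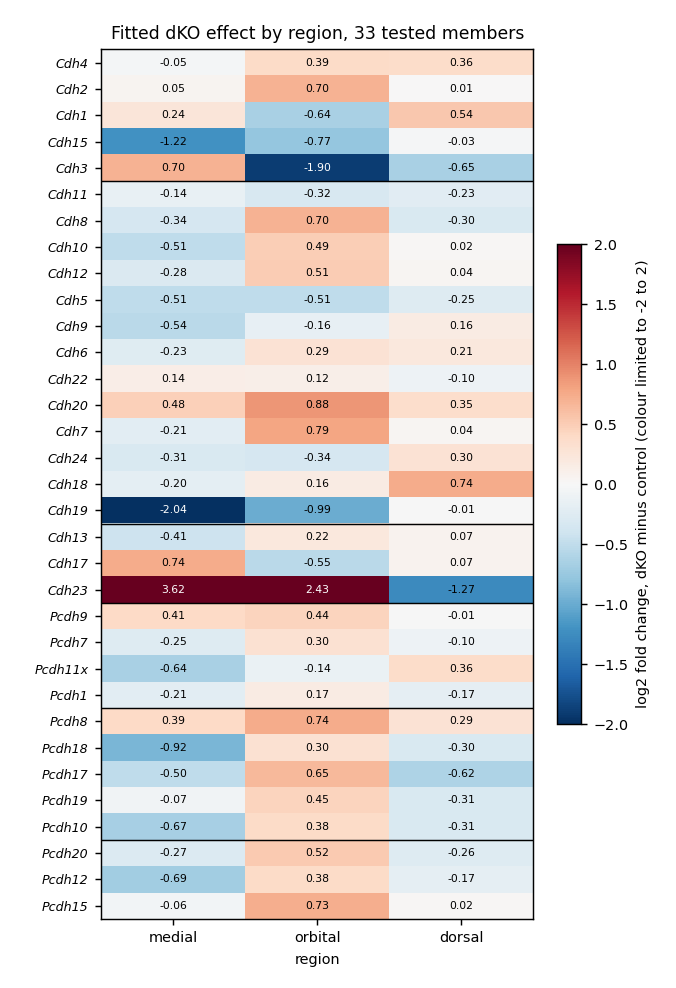
Fitted log2 fold change (dKO minus control) of the 33 tested members in medial, orbital and dorsal tissue, printed in each cell and coloured from blue (lower in dKO) to red (higher in dKO), with members grouped by role. Cdh8 is at -0.34, 0.70 and -0.30, and the extreme values of Cdh19 and Cdh23 rest on 152 and 193 fragments in all.

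Pcdh19 and Pcdh11x lie on the X chromosome, and only set B compares pups of the same sex. There the dKO minus control difference in log2 CPM was 0.06 in medial, 0.29 in orbital and -0.37 in dorsal tissue for Pcdh19, and -0.34, -1.14 and 0.79 for Pcdh11x in the same order. In sets A and C, which compare female dKO with male control tissue, Pcdh19 differed by -0.21 and -0.10 in medial, 0.29 and 1.07 in orbital and -0.28 and -0.18 in dorsal tissue. Pcdh11x differed in these sets by 0.31 and -1.62 in medial, 0.56 and 0.62 in orbital and 0.70 and -0.63 in dorsal tissue. For Pcdh19 the sign was the same in all 3 sets in orbital and dorsal tissue and not in medial tissue. For Pcdh11x no region had the same sign in all 3 sets, and in orbital tissue the same-sex set B was lower in dKO while both other sets were higher.

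Partners of the cadherins were followed in 5 lists: catenins and plakophilins, the WAVE complex, nectins and afadin, proteases that cleave cadherins, and other members of the cadherin superfamily. Of their 51 genes 48 were tested. In dKO against control tissue 0 passed by edgeR in any region or in the summed counts, with 9 at an unadjusted p under 0.05 in medial, 8 in orbital, 0 in dorsal and 4 in summed counts, to be read against 15%, 13.9%, 6.78% and 9.03% of all genes. Limma-voom called 0 in each, and DESeq2 called 1 in medial tissue (Clstn3) and 1 in the summed counts (Celsr1), against 5.98% and 1.79% of all genes.

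In control tissue partners passed the threshold only in the comparisons that involve orbital libraries. Between medial and dorsal control libraries 0 partners were called in any of the 5 lists, where 0.283% of all genes were called lower and 0.208% higher. Between orbital and dorsal control libraries, where 9.44% of all genes were called lower and 6.39% higher, 7 of 16 tested superfamily members were lower (Clstn2, Celsr2, Fat3, Fat4, Celsr3, Clstn1 and Dchs1) and 1 was higher (Cdhr1, a cadherin known from photoreceptors and olfactory bulb). The lowest p were those of Clstn2, a calsyntenin of synapses (log2 fold change -1.80, SE 0.189, adjusted p = 0.000506), Celsr2, a cadherin of planar polarity (-1.95, SE 0.315, adjusted p = 0.00276), Cyfip2, a WAVE complex subunit (-0.91, SE 0.159, adjusted p = 0.00371), and Fat3, a giant cadherin (-1.40, SE 0.268, adjusted p = 0.00544). Of 11 WAVE complex genes 3 were lower (Cyfip2, Abi2 and Wasf3) and 0 higher. Of 11 tested catenins and plakophilins Ctnna2 (alphaN-catenin, of neurons) was lower and Ctnna1 (alphaE-catenin) higher. Afdn, which links nectins to actin, was the 1 of 5 in its list that was lower, and of 5 proteases Adam10 was lower and Psen2 higher.

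Between medial and orbital control libraries, where 4.48% of all genes were called higher and 4.54% lower, 4 superfamily members (Clstn2, Celsr2, Fat4 and Celsr3), 3 WAVE complex genes (Abi2, Cyfip2 and Nckap1) and Ctnnd2 (delta-catenin) were higher and Ctnna1 lower. The log2 fold changes were 1.12 for Clstn2 (SE 0.186, adjusted p = 0.00793), 0.62 for Abi2 (SE 0.134, adjusted p = 0.0166), -0.70 for Ctnna1 (SE 0.168, adjusted p = 0.0232) and 1.22 for Celsr2 (SE 0.310, adjusted p = 0.0288). Both comparisons use the same orbital libraries. In dKO tissue the only partner past the threshold in a region comparison was Nectin3, an adhesion protein of cell junctions, lower in medial than in dorsal libraries (log2 fold change -0.79, SE 0.154, adjusted p = 0.0172), where 1.22% of all genes were called lower.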

How the data were processed

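RNA of 18 tissue samples was amplified with SMART-seq v4 and made into Nextera XT libraries, read as pairs of 100 bp, per the labels. The deposited values are raw counts of fragments per gene, which the authors made with STAR 2.6 and featureCounts 1.6.2 on Ensembl 94 gene models of GRCm38, per the file headers and the submitters' processing notes, ignoring strand. Gene symbols matched 54409 of 54532 IDs, and 6 columns of per-sample values were not used. Total counts were 28957325 to 93093398 per library.

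Counts were tested with the quasi-likelihood test of edgeR 4.0.16 in R 4.3.3, with TMM factors, a minimum count of 10 and minimum total of 15, and Benjamini-Hochberg adjustment over all genes kept, at 0.05. Genotype was tested in 1 fit of the 6 groups with the sample name prefix as a term, and on the 3 regions of a row summed. That prefix is RAR in set A and RXR in sets B and C, so the term sets A against B and C. Set A libraries held 52317649 to 93093398 fragments and those of sets B and C 28957325 to 39158792. Region differences and the test between regions used the row as a block, because regions of a row deviated together (correlations 0.204 to 0.65, 18 of 18 over 0.1). The genotype fit of the 6 groups had no term for the row, so its p-values do not account for this. In the summed counts each row entered once. The labels do not say what a row is. Alternatives were DESeq2 1.42.0, limma-voom 3.58.1, RLE factors, no filter, other terms and leaving out each replicate. The tests were tried on simulated counts.

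Members were named where they passed the threshold, up to 6 per comparison by lowest p. With fewer than 3 past it the 3 lowest p were given, and the 3 highest levels per length were added. Members that other sentences single out were chosen after their values were seen. The members, the lists of partners and the marker lists were chosen with earlier results of these data known.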

Additional observations from a re-analysis of the deposited data

Results flagged for a closer look

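The dKO effect on Cdh8 differed between the 3 regions by a test of the difference itself (edgeR, 2 degrees of freedom, adjusted p = 0.0496). By set, the dKO minus control difference in log2 CPM was -0.64, -0.44 and 0.11 in medial, 0.41, 0.93 and 0.90 in orbital and -0.48, -0.10 and -0.27 in dorsal tissue. All 3 sets were higher in dKO in orbital and lower in dKO in dorsal tissue.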

How the results depend on the processing

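Counts of members called were recomputed under 114 alternatives, and 75 stayed within 1.5 times the main count. Shares of all genes called under an alternative are given only for DESeq2, in some comparisons above. The counts that follow therefore do not tell whether members were called more often than other genes. With no filter on low counts the calls were 1 for dKO against control in medial and 2 in orbital tissue, 6 for medial minus dorsal, 8 for orbital minus dorsal and 6 for medial minus orbital in dKO, 7, 14 and 11 for the same differences in controls, and 11 for the dKO effect differing between regions. DESeq2 called 2 in orbital dKO against control, 5 for medial minus dorsal, 7 for orbital minus dorsal and 1 for medial minus orbital in dKO, 6 for medial minus dorsal and 11 for medial minus orbital in controls, and 5 for the effect between regions. A term for sex gave 1 in medial dKO against control, and RLE factors gave 0 for the effect between regions. With no replicate block, that is without the row, the calls were 1 and 0 in dKO (medial minus dorsal and orbital minus dorsal), 0, 2 and 0 in controls (the same, then medial minus orbital), and 0 between regions. With the set as a replicate block, dKO against control gave 0 in each region and in summed counts. Deviations of control and dKO libraries of a set had correlations of -0.072 to 0.319, with 5 of 9 over 0.1. They were 0.173 to 0.319 in set A, -0.072 to 0.029 in set B and 0.064 to 0.282 in set C. Leaving out 1 replicate gave 0 to 1 in medial dKO against control and 0 in orbital, dorsal and summed counts. It gave 1 to 3, 0 and 0 for medial minus dorsal, orbital minus dorsal and medial minus orbital in dKO, 0 to 1, 7 to 8 and 4 to 8 for these in controls, and 0 to 3 between regions. Of 389 alternatives for named members, 321 kept direction and side of the threshold, 49 no longer passed, 19 newly passed and 0 reversed. The cause of these shifts was not tested.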
